A study of Oncorhynchus mykiss with 18 samples.

Results

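The 200 strongest meiotic DNA double-strand break (DSB) hotspots of the rainbow trout RT-52 were described here, out of 1924 DSB hotspots listed for this fish and 2749 listed for the 3 fish of the study. They were chosen by their deposited values, a measure of DMC1 signal, as the 200 highest of the list, so that their values and everything read from the same peaks are a description. Testes of 3 rainbow trout of the INRA-AUT strain were used, 1 fish per Prdm9 genotype. RT-52 carried Prdm9 1/2 and was at maturation stage IV, TAC-1 carried Prdm9 1/5 and was at stage III, and TAC-3 carried Prdm9 2/6 and was also at stage III. RT-52 therefore shared allele 1 with TAC-1 and allele 2 with TAC-3, as the study's methods give the genotypes. DMC1-bound single-stranded DNA was sequenced (DMC1-SSDS) in 2 replicates per fish, with the antibodies DMC1-R1 and DMC1-GP in RT-52 and with DMC1-R1 in both replicates of TAC-1 and TAC-3. H3K4me3 and H3K36me3, histone H3 trimethylated at lysine 4 and at lysine 36, were mapped by ChIP-seq in 2 replicates each in TAC-1 and TAC-3, and no histone list of RT-52 was used here. Because each genotype was 1 fish, the allele, the individual, the stage and, in RT-52, the antibody cannot be told apart.

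Meiotic recombination starts with programmed DSBs, which in many vertebrates cluster in short hotspots. In species with a full-length PRDM9, such as mice and humans, this protein sets their position: its zinc fingers bind a DNA motif that differs between alleles, and its SET domain adds H3K4me3 and H3K36me3 to nucleosomes beside the bound site. DSB ends are then resected, and the recombinase DMC1 loads on the single-stranded DNA, which DMC1-SSDS captures. H3K4me3 also marks gene promoters and H3K36me3 marks transcribed gene bodies, independently of PRDM9. DNA motifs at the hotspots were not analysed here.

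The deposited values of the strongest 200 hotspots fell steeply with rank. They ran between 360 and 2872, with a median of 569, whereas the other 1724 hotspots had values between −180 and 358, with a median of 85. Only 4 hotspots reached 2000, 27 reached 1000 and 120 reached 500. With 10.4% of the hotspots, they held 42.6% of the summed value of the RT-52 list. The last hotspot inside, on an unplaced scaffold at 222478 to 224193, had a value of 360, and the first outside, on chromosome Y at 42748514 to 42750315, had 358. No hotspot outside tied with the last one inside. Neither of this pair had an H3K4me3 peak at its center, and the outer one was shared with TAC-1. Sharing and histone peaks were read at the central 400 bp of a hotspot throughout, unless another window is named.

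The strongest hotspots were also wide. Their width averaged 2791 ± 861 bp (SD over hotspots, n = 200), against 1974 ± 713 bp in the other 1724 hotspots. The medians were 2642 bp and 1776 bp. A width of at least 3000 bp was found in 63 of the strongest 200 (31.5%) and in 141 of the others (8.18%). The widest, of 7132 bp, lay on chromosome 16 at 77998598 to 78005729 in flna, which in mammals encodes the actin crosslinker filamin A. It was 0.509 Mb from the chromosome end, had a value of 417, and carried H3K4me3 and H3K36me3 in TAC-1 only. The narrowest, of 1362 bp, lay on chromosome 22 at 50608095 to 50609456 in LOC110502196, had a value of 875, and carried none of the 4 histone peaks. Neither was shared with TAC-1 or TAC-3. Width and value came from the same peaks, and their rank correlation was 0.18 over the strongest 200 and 0.55 over all 1924 hotspots (Spearman's rho, across hotspots of 1 list). The plot of value by rank and of width shows both gradients.

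**Figure D1:**
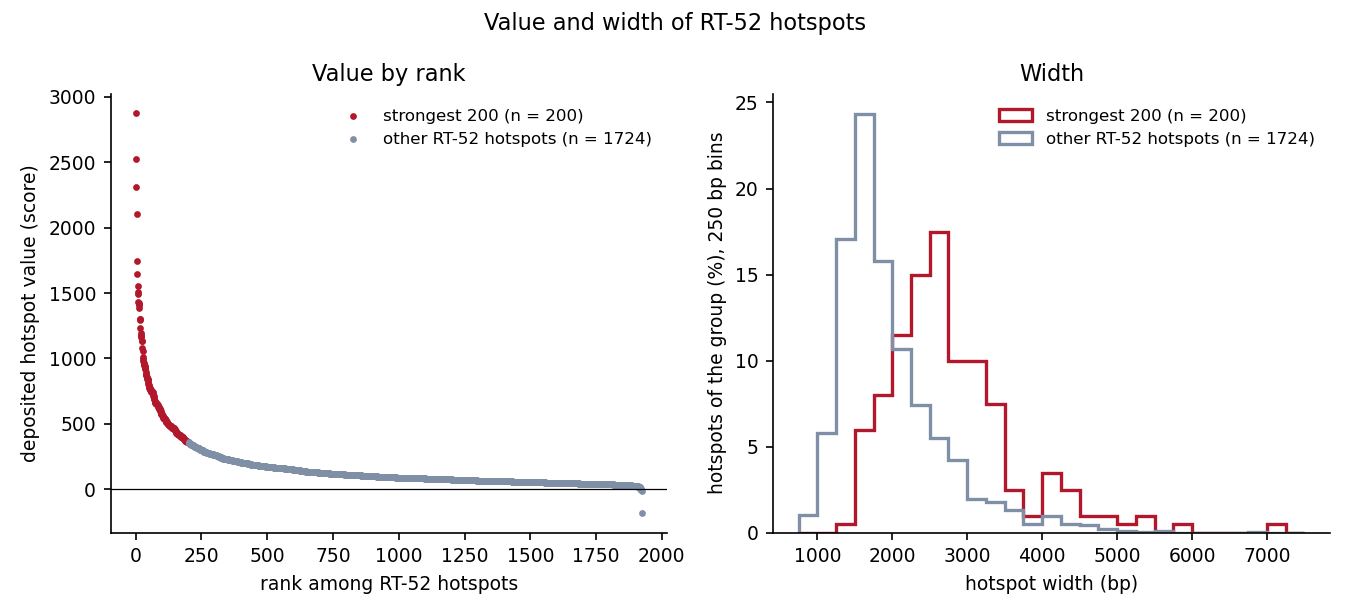
Deposited value by rank (left, score) and width in 250 bp bins (right, percent of each group) for the strongest 200 hotspots and the other 1724 RT-52 hotspots, with 1 point per hotspot on the left. The strongest 200 hold all values of 360 and above, and their widths are centered on a median of 2642 bp, against 1776 bp in the others.

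The strongest hotspot of all lay on chromosome 20 at 1361419 to 1363776 (USDA_OmykA_1.1), inside LOC110498800, with a value of 2872. It was shared with TAC-1, where the overlapping hotspot had a value of 218 and ranked 26 of 616, and it carried H3K4me3 and H3K36me3 in TAC-1 only. It was thus the highest-ranked RT-52 hotspot shared with TAC-1. The next, on chromosome 1 at 3623088 to 3625947, had a value of 2523 and lay inside bcl6aa, whose mammalian counterpart BCL6 is a transcriptional repressor. It was the highest-ranked one shared with TAC-3, where its counterpart had a value of 144 and ranked 14 of 209, and none of the 4 histone lists had a peak at its center. The third, on chromosome 16 at 75981024 to 75984283 inside LOC118939596 (value 2311), was found in RT-52 alone and had no histone peak. The fourth, on chromosome 10 at 85724964 to 85727977 inside LOC110513755 (value 2104), was shared with TAC-3 and carried H3K4me3 in TAC-3 only.

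The remaining hotspots of the first 10 had values between 1433 and 1742. On chromosome 24 at 45241134 to 45243779, a hotspot with a value of 1555 was shared with TAC-3 and carried both marks in TAC-3 only. On chromosome 11 at 435582 to 439589, a hotspot of 4008 bp with a value of 1489 was shared with TAC-1 and carried both marks in TAC-1 only. It lay in slc22a13b, a member of the organic ion transporter family. On chromosome Y at 1970740 to 1973449, a hotspot with a value of 1511 in LOC110509553 was shared with TAC-1 and had no histone peak. The other 3 were neither shared nor marked: chromosome 21 at 61257381 to 61260268 (value 1742, 77451 bp from tkfc), chromosome Y at 5285467 to 5288050 (value 1642, 26734 bp from LOC118945351) and chromosome 25 at 42719348 to 42722037 (value 1433, 2007 bp from LOC110505989). In all, 3 of the 10 were shared with TAC-1, 3 with TAC-3 and 4 with neither. Over all RT-52 hotspots, 8.78% were shared with TAC-1 and 2.29% with TAC-3. H3K4me3 was found in TAC-1 only at 2, in TAC-3 only at 2 and in neither testis at 6. Of all 1924 RT-52 hotspots, 478 had it in TAC-1 only, 390 in TAC-3 only and 1005 in neither. The counts among the first 10 were not tested. None of these 10 was shared with, or marked in, both fish.

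Which hotspots of RT-52 were also used in fish that carried only 1 of its alleles was asked next. A hotspot was called shared when its central 400 bp overlapped the central 400 bp of a hotspot of the other list by at least 1 bp. Of the strongest 200, 52 were shared with TAC-1 (26%, 95% Wilson interval 20.4 to 32.5%), against 117 of the other 1724 (6.79%, 5.69 to 8.07%), where all RT-52 hotspots gave 8.78%. The difference was 19.2 percentage points (95% Newcombe interval 13.5 to 25.8, adjusted p = 1.22e-13 by two-sided Fisher's exact test, adjusted over 15 comparisons). With TAC-3, 22 of the strongest 200 were shared (11%, 7.38 to 16.1%), against 22 of the others (1.28%, 0.844 to 1.92%), where all RT-52 hotspots gave 2.29%. This difference was 9.72 points (6.04 to 14.8, adjusted p = 1.59e-10 by Fisher's exact test). The strongest 200 thus held 22 of the 44 RT-52 hotspots shared with TAC-3 and 52 of the 169 shared with TAC-1. Intervals cover counting error only, hotspots of 1 list are not replicates, and the depth behind each hotspot is not given in the lists used here.

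No hotspot of the strongest 200 was shared with both TAC-1 and TAC-3, a count of 0 that allows up to 1.50%. Of the other 1724 hotspots, 2 were (0.116%), and counts this small do not tell the groups apart. Of the strongest 200, 126 (63.0%) were shared with neither fish, against 1587 of the others (92.1%). A list holds nothing below its calling threshold, so that an unshared hotspot was only not called in the other testis. The RT-52 list holds 1924 hotspots, against 616 in the list of TAC-1 and 209 in that of TAC-3.

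**Figure D2:**
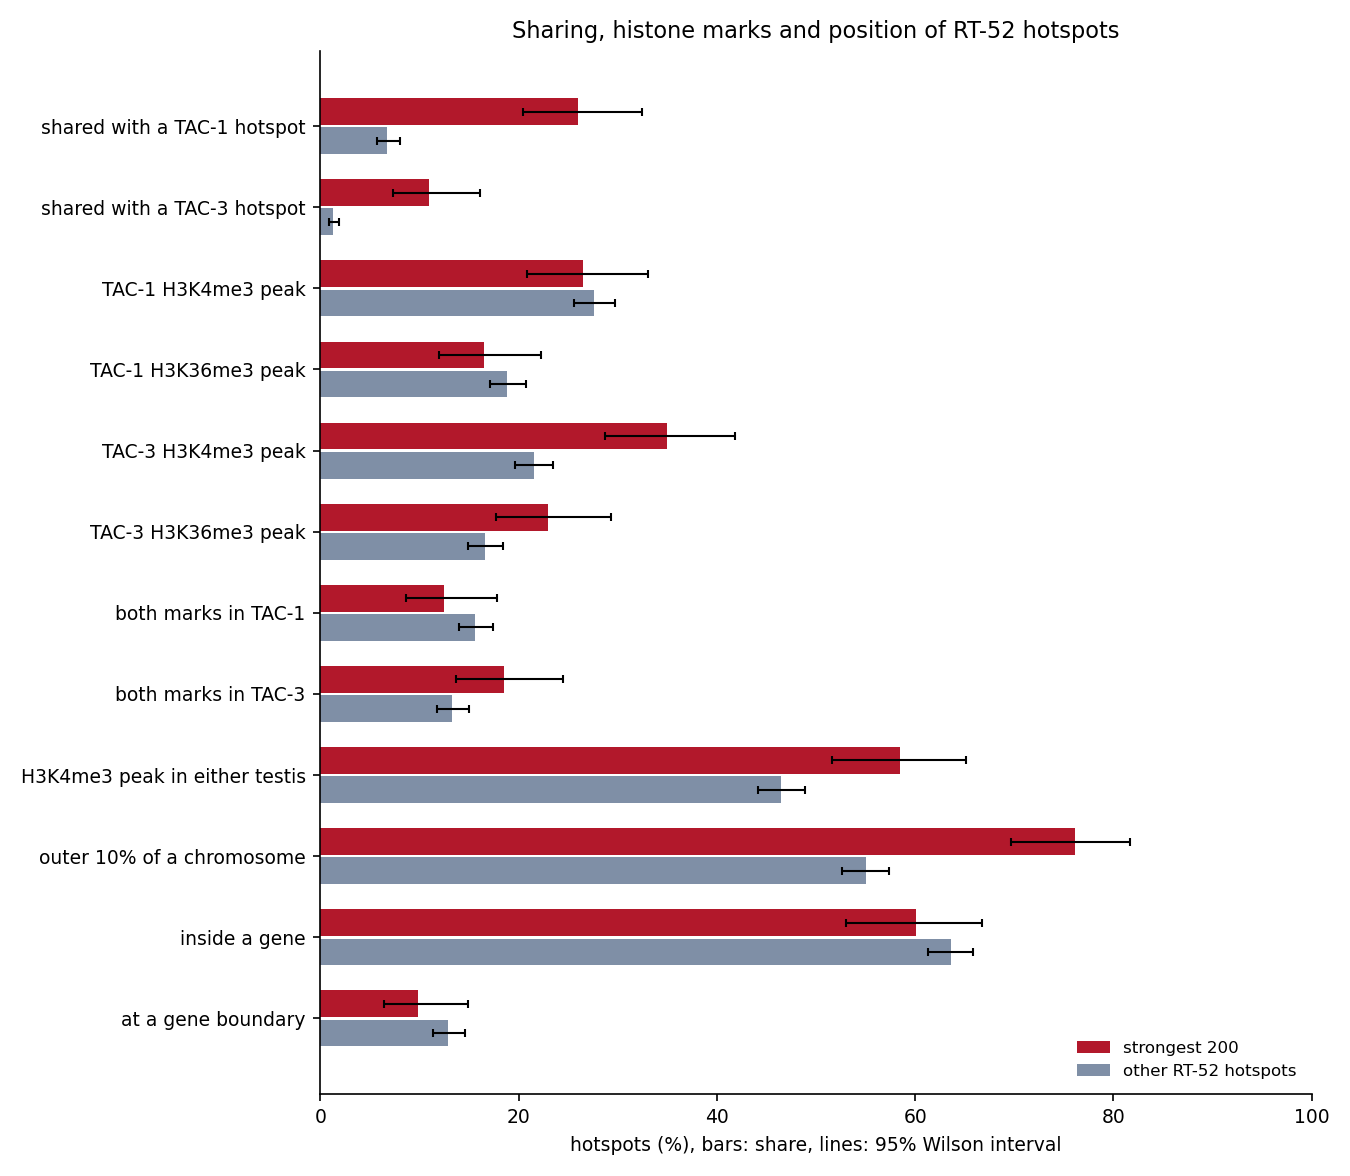
Share of the strongest 200 hotspots (above) and of the other RT-52 hotspots (below) that were shared with TAC-1 or TAC-3, overlapped a histone peak, or lay at chromosome ends or in genes, in percent. Bars are shares over 200 and 1724 hotspots (193 and 1676 for the chromosome and gene rows) and lines are 95% Wilson intervals. Sharing with TAC-1 (26% against 6.79%) and position in the outer 10% of chromosomes (76.2% against 55.0%) stand furthest apart.

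Sharing with TAC-1 varied little across the strongest 200, and sharing with TAC-3 was most common in the first 50. With TAC-1, 7 of the first 25 (28%), 7 of the next 25 (28%) and 15 of ranks 51 to 100 (30%) were shared, as were 11 (22%) and 12 (24%) of the 2 following sets of 50. Outside, the share was 16.5% in ranks 201 to 400 and 2.78% in ranks 1601 to 1924. With TAC-3, 5 of the first 25 (20%) and 6 of the next 25 (24%) were shared, as were 3 of ranks 51 to 100 (6.0%), 7 of ranks 101 to 150 (14%) and 1 of ranks 151 to 200 (2.0%). Outside, 5 of ranks 201 to 400 (2.5%) were shared. The first 50 of the 200 thus held 11 of the 22 strong hotspots shared with TAC-3 and 14 of the 52 shared with TAC-1, with no test of these counts.

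**Figure D3:**
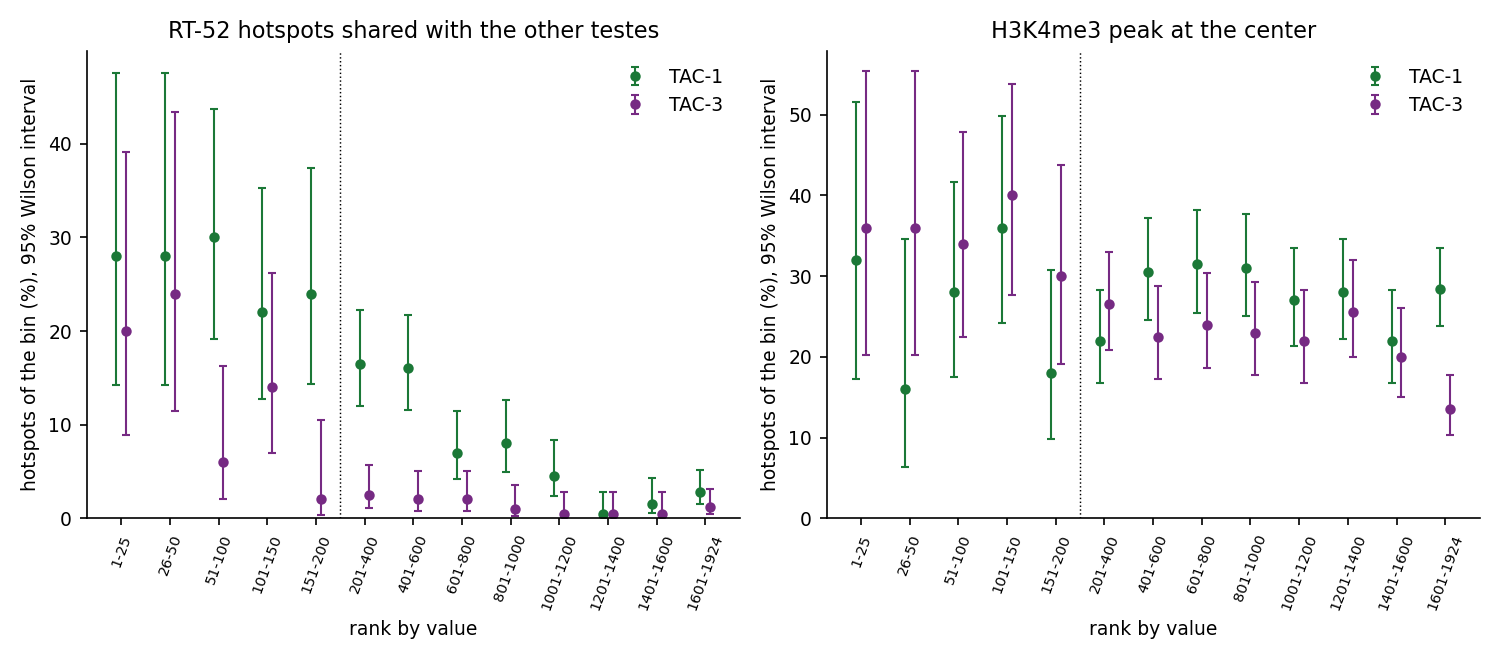
Share of RT-52 hotspots in bins of rank that were shared with a TAC-1 or TAC-3 hotspot (left) or carried H3K4me3 of TAC-1 or of TAC-3 at the center (right), in percent with 95% Wilson intervals. The dotted line marks rank 200. Sharing with TAC-1 lies between 22 and 30% to its left, and the TAC-3 H3K4me3 share lies between 30 and 40% there and between 13.6 and 26.5% to its right.

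In TAC-1, the 52 hotspots that matched a strong RT-52 hotspot had values between 42 and 419, with a median of 94. The median was 63 for the 116 TAC-1 hotspots that matched another RT-52 hotspot and 52 for the 448 that matched none. In TAC-3, the 22 matching hotspots had values between 43 and 144, with a median of 67.5, against 47 for the 22 that matched another RT-52 hotspot and 58 for the 165 without a match. The matches ranked 5 to 455 of 616 in TAC-1 (median 135.5) and 14 to 158 of 209 in TAC-3 (median 78). In TAC-1, a strong RT-52 hotspot was matched by 3 of the 10 highest hotspots, 11 of the 50 highest (22%) and 19 of the 100 highest (19%), against 8.44% of all 616. In TAC-3, it was matched by none of the 10 highest, 6 of the 50 highest (12%) and 16 of the 100 highest (16%), against 10.5% of all 209. None of the 10 highest TAC-3 hotspots matched any RT-52 hotspot. The paper holds that peaks common to TAC-1 and TAC-3 may be artifacts, since they lack the strand pattern of DSB hotspots. They were kept in the lists here, so that ranks, shares and medians of unmatched hotspots include them. Among the 52 matches, the highest TAC-1 value, 419 at rank 5, belonged to the match of the RT-52 hotspot in psmd8 (chromosome 24 at 38983448 to 38988761, value 1136, rank 24). In mammals this gene encodes a subunit of the regulatory particle of the proteasome. Matched midpoints lay less than 400 bp apart by the definition of sharing. Their median distance from TAC-1 midpoints was 80.5 bp for the strongest hotspots and 84 bp for the other RT-52 hotspots. For TAC-3 midpoints, the medians were 93 bp and 61.5 bp. Across the matched pairs, Spearman's rho between the RT-52 value and the value in the other fish was 0.20 in TAC-1 (n = 52) and 0.45 in TAC-3 (n = 22). It is given with no test, since the RT-52 value chose the hotspots. Over all RT-52 hotspots shared with each fish, rho was 0.48 in TAC-1 (n = 169) and 0.55 in TAC-3 (n = 44), also with no test.

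How the marks of the other testes lay at the strongest hotspots was compared at their central 400 bp. H3K4me3 of TAC-3 was the histone mark that differed most. It was present at 70 of the strongest 200 (35.0%, 28.7 to 41.8%), against 371 of the other 1724 (21.5%, 19.6 to 23.5%), where all RT-52 hotspots gave 22.9%. The difference was 13.5 points (6.90 to 20.6, adjusted p = 0.000146 by Fisher's exact test). H3K4me3 of TAC-1 was present at 53 of the strongest 200 (26.5%, 20.9 to 33%) and at 476 of the others (27.6%, 25.6 to 29.8%), where all gave 27.5%. Here the difference was −1.11 points, with an interval of −7.14 to 5.72 (adjusted p = 0.802 by Fisher's exact test). The excess of TAC-3 H3K4me3 was 17.8 points among hotspots in the outer 10% of chromosomes (adjusted p = 2.57e-05) and 2.61 points among the 46 strong and 754 other hotspots further inside (adjusted p = 1, both by Fisher's exact test), and the difference between these regions was not tested.

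A peak of H3K4me3 in at least 1 testis was found at 117 of the strongest 200 (58.5%, 51.6 to 65.1%), against 802 of the others (46.5%, 44.2 to 48.9%), where all RT-52 hotspots gave 47.8%. The difference was 12.0 points (4.66 to 19, adjusted p = 0.00490 by Fisher's exact test). It did not pass the threshold with the strongest 100 (10.8 points, adjusted p = 0.119) or 400 (5.35 points, adjusted p = 0.136) in place of 200, by the same exact test. Nor did it pass among hotspots outside the outer 10% of chromosomes (9.46 points, adjusted p = 0.848 by Fisher's exact test). The shares depend on the window, and the full length covers more sequence at the strongest 200 (median 2642 bp) than at the others (1776 bp). With full-length hotspots, H3K4me3 in at least 1 testis was at 150 of 200 strong ones (75%) and 1035 of 1724 others (60.0%). In TAC-1 it was at 94 (47%) and 709 (41.1%). With the central 2 kb, which is equal for all hotspots, the shares were 74% and 60.6% in at least 1 testis. In TAC-1 they were 44.5% and 41.5%. A hotspot without a peak at its center can thus have one elsewhere in its length.

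H3K36me3 differed less than H3K4me3 in TAC-3 and, over all RT-52 hotspots, passed the threshold in neither testis. In TAC-3 it was present at 46 of the strongest 200 (23%, 17.7 to 29.3%), against 286 of the others (16.6%, 14.9 to 18.4%), where all gave 17.3%. This difference of 6.41 points (0.813 to 12.9) did not pass the threshold after adjustment (p = 0.0292, adjusted p = 0.0626, Fisher's exact test). In TAC-1 it was present at 33 (16.5%, 12.0 to 22.3%), against 325 (18.9%, 17.1 to 20.8%), where all gave 18.6%, a difference of −2.35 points (−7.24 to 3.68, adjusted p = 0.476 by Fisher's exact test).

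Both marks together, which PRDM9 is known to place, were present in TAC-1 at 25 of the strongest 200 (12.5%) and 269 of the others (15.6%), where all gave 15.3% (adjusted p = 0.373 by Fisher's exact test). In TAC-3 both were present at 37 (18.5%) and 230 (13.3%), where all gave 13.9% (adjusted p = 0.0967 by the same exact test). Among hotspots that already had H3K4me3, H3K36me3 was found as well at 25 of 53 strong ones in TAC-1 (47.2%), against 269 of 476 (56.5%), where all gave 55.6% (adjusted p = 0.345 by Fisher's exact test). In TAC-3 the counts were 37 of 70 (52.9%) and 230 of 371 (62.0%), where all gave 60.5% (adjusted p = 0.304, both by Fisher's exact test). None of these 4 comparisons passed the threshold. The intervals of the last 2 differences reached down to −22.9 and −21.6 points.

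H3K4me3 was present in TAC-1 only at 47, in TAC-3 only at 64, in both at 6 and in neither at 83, against 431, 326, 45 and 922 of the others. The share with H3K4me3 in both testes was 3.0% in the strongest 200 and 2.61% in the others. Among hotspots with H3K4me3 in a single testis, that testis was TAC-1 at 47 of 111 strong ones (42.3%, 33.6 to 51.6%) and at 431 of 757 others (56.9%, 53.4 to 60.4%), where all gave 55.1%. The balance thus lay toward TAC-3 at the strongest hotspots, by −14.6 points for TAC-1 (−24.0 to −4.64, adjusted p = 0.0106 by Fisher's exact test). This comparison uses the same H3K4me3 calls as those of each testis and of either testis above, and is not independent of them. The H3K4me3 list of TAC-1 holds 153665 peaks and that of TAC-3 holds 50548. With the same number of peaks for both fish the difference was −8.53 points and no longer passed the threshold (adjusted p = 0.206, Fisher's exact test), and outside the outer 10% of chromosomes it was 0.416 points. The call was lost in 6 of 13 alternatives.

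Marks and sharing went with the same fish. Of the 47 strong hotspots with H3K4me3 in TAC-1 only, 31 were shared with TAC-1 (66.0%, 51.7 to 77.8%) and none with TAC-3, which allows up to 6.38%. Of the 64 with H3K4me3 in TAC-3 only, 16 were shared with TAC-3 (25%, 16 to 36.8%) and none with TAC-1, which allows up to 4.69%. All 6 with H3K4me3 in both testes were shared with neither. Among the 83 without H3K4me3, 21 were shared with TAC-1 (25.3%), 6 with TAC-3 (7.23%) and 56 with neither fish (67.5%). Of the 922 others without it, 47 were shared with TAC-1 only (5.10%), 3 with TAC-3 only (0.325%), 2 with both and 870 with neither (94.4%). Sharing was thus also more common at the strongest 200 where no H3K4me3 was called. The other RT-52 hotspots followed the same division at lower shares: 67 of 431 with H3K4me3 in TAC-1 only were shared with TAC-1 (15.5%, 12.4 to 19.3%) and none with TAC-3, and 17 of 326 with H3K4me3 in TAC-3 only were shared with TAC-3 (5.21%, 3.28 to 8.19%) and none with TAC-1. These counts are a description, with no test.

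Over the 4 histone lists, the most common state of the strongest 200 was no peak at the central 400 bp (77 hotspots, 38.5%, against 50.5% of the others). Next came both marks in TAC-3 and none in TAC-1 (30, 15%, against 11.1%) and H3K4me3 of TAC-3 alone (29, 14.5%, against 6.44%). H3K4me3 of TAC-1 alone followed (23, 11.5%, against 10.6%), then both marks in TAC-1 with none in TAC-3 (19, 9.50%, against 13.2%). These shares are a description, with no test. All 4 marks were found at 2 of the strongest 200 (1.0%) and at 13 of the other 1724 (0.754%), which are similar shares. Altogether, 144 of the strongest 200 (72%) were shared with a fish or carried H3K4me3 in at least 1 testis, against 854 of the others (49.5%).

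The H3K4me3 peaks at the strongest hotspots were described by their deposited score, an average of the MACS2 scores of the peaks merged into it. In TAC-1 the median score was 735.5 at the strongest 200 (n = 53) and 511 at the others (n = 476), which was at percentiles 86.8 and 78.6 of the list. In TAC-3 the medians were 264.5 (n = 70) and 255.5 (n = 371), at percentiles 60.3 and 59.4. Peak midpoints lay at a median of 232 bp from the hotspot midpoint for TAC-1 and 184.5 bp for TAC-3. Inside the strongest 200, the RT-52 value had rank correlations of 0.049 with the TAC-1 score and 0.067 with the TAC-3 score, across hotspots. These correlations cover only the range of values left by the choice of hotspots. Over all RT-52 hotspots with such a peak, they were 0.044 in TAC-1 (n = 529) and −0.055 in TAC-3 (n = 441). All are given with no test.

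The strongest hotspots lay nearer to chromosome ends than the rest. Of the 193 that lay on chromosomes, 147 had their midpoint in the outer 10% of the length at either end (76.2%, 69.7 to 81.6%), against 922 of 1676 others (55.0%, 52.6 to 57.4%), where all RT-52 hotspots on chromosomes gave 57.2%. The difference was 21.2 points (14.3 to 27.1, adjusted p = 4.60e-08 by Fisher's exact test). Chromosome length was taken as the last position of any listed peak or gene, so that distances to the far end are to that position. The first 10% held 68 of the strong hotspots and the last 10% held 79. Their median distance to the nearer end was 3.83 Mb, against 6.36 Mb for the others, and 124 (64.2%) against 640 (38.2%) lay within 5 Mb of it. Between 40 and 50% of the length from the nearer end, there was no strong hotspot (0 of 193, which allows up to 1.55%), against 61 of the others (3.64%). The strong hotspot nearest to an end lay 0.0720 Mb from it, on chromosome 12 at 102773580 to 102777221, 8812 bp from LOC110516933. It had a width of 3642 bp and a value of 617, was unshared and carried no histone peak. The remaining 7 strong hotspots, like 48 of the others, were on unplaced scaffolds and have no position along a chromosome.

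**Figure D4:**
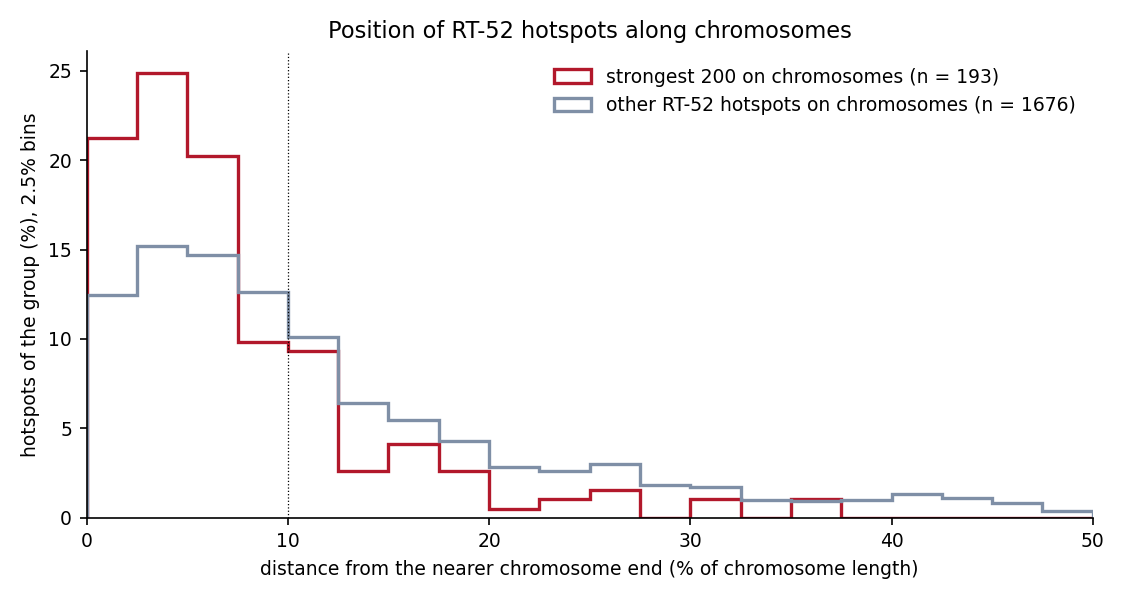
Distance from the nearer chromosome end, in percent of chromosome length, for the 193 strongest and the 1676 other RT-52 hotspots on chromosomes, as percent of each group in bins of 2.5%. The dotted line marks 10%: 76.2% of the strongest and 55.0% of the others lie to its left.

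Chromosome Y held the most strong hotspots, 28 of its 119 RT-52 hotspots (23.5%, 16.8 to 31.9%), against 165 of 1750 on the other chromosomes (9.43%, 8.15 to 10.9%). Per length, these were 5.87 strong hotspots per 10 Mb on chromosome Y and 0.755 on the others. RT-52 hotspots of any strength were also denser on chromosome Y, at 24.96 per 10 Mb against 8.01 on the others. The chromosome was singled out for its count, and no test was made. No X chromosome is among the sequences of the lists, so that reads of X and Y cannot be told apart. Chromosomes 20, 2 and 16 came next, with 14 of 81, 13 of 100 and 11 of 88 hotspots. Chromosomes 13 and 26 held none, of 27 and 36 hotspots, which allows up to 11.1% and 8.33%.

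The strong hotspots of chromosome Y were spread more widely than elsewhere. On it, 20 lay in the first 40% of the length, 1 between 70 and 80%, and 7 beyond 80%. In the outer 10% lay 15 of the 28 (53.6%, 35.8 to 70.5%), against 132 of 165 on the other chromosomes (80%, 73.2 to 85.4%). Among the other RT-52 hotspots, the counts were 26 of 91 on chromosome Y (28.6%) and 896 of 1585 elsewhere (56.5%). Values ranged between 368 and 1642 on chromosome Y (median 656.5), against 361 and 2872 on the other chromosomes (median 569). H3K4me3 in at least 1 testis was found at 20 of the 28 (71.4%, 52.9 to 84.7%), against 94 of 165 (57.0%, 49.3 to 64.3%). Among the other RT-52 hotspots, it was found at 40 of 91 on chromosome Y (44.0%) and at 742 of 1585 elsewhere (46.8%). Without chromosome Y, the difference in H3K4me3 between strongest and other hotspots was 9.73 points (adjusted p = 0.0401 by Fisher's exact test), and that in the outer 10% was 23.5 points (adjusted p = 1.05e-08 by the same exact test).

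**Figure D5:**
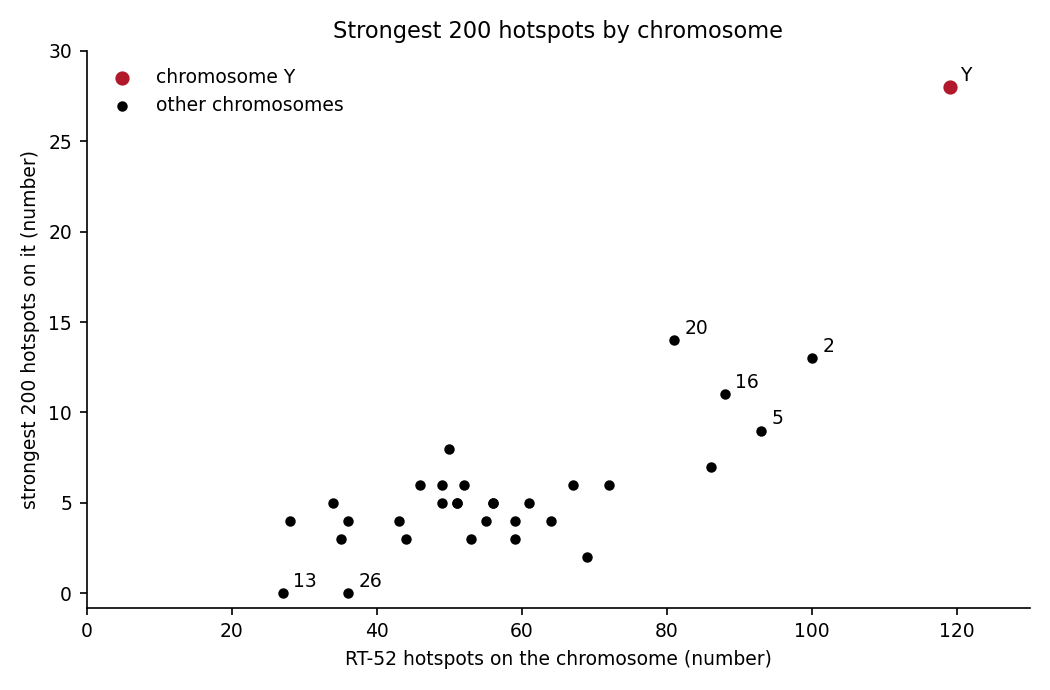
Number of strongest 200 hotspots against the number of RT-52 hotspots on each of the 32 chromosomes, with 1 point per chromosome. Chromosome Y stands at 28 of 119, the next highest is chromosome 20 at 14 of 81, and chromosomes 13 and 26 are at 0.

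The median distance to the nearest RT-52 hotspot of any strength was 103 kb, against 138 kb for the others, and the median distance to the nearest other strong hotspot was 758 kb, against 1438 kb from the other hotspots on chromosomes that hold a strong one. Another strong hotspot lay within 50 kb of 13 of the strong ones (6.74%), against 68 of the others (4.06%), and within 1000 kb of 114 (59.1%), against 655 (39.1%). The strong hotspots also lay nearer to chromosome ends, as given above, and the part of this in the spacing was not tested. Grouped with gaps of up to 100 kb between midpoints, the 193 on chromosomes formed 183 groups, of which 175 were single hotspots and the largest held 4. With gaps of up to 1000 kb, they formed 127 groups, 79 of them single and the largest of 7. Only 2 strong hotspots lay within 10 kb of each other, on chromosome Y at 861815 to 864130 (width 2316 bp, value 742) and at 871755 to 873978 (width 2224 bp, value 434). Their midpoints were 9894 bp apart inside LOC110509502, both carried H3K4me3 and H3K36me3 in TAC-3 only, and neither was shared. The next closest pair, with midpoints 10926 bp apart on chromosome Y inside LOC110509593, was marked by different fish: 1 hotspot had H3K4me3 in TAC-3 only and the other had it in TAC-1 only. Spacing is given as a description.

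Placement relative to genes gave no difference that passed the threshold. The central 400 bp overlapped a gene of the RefSeq table at 116 of 193 (60.1%, 53.1 to 66.8%) and at 1066 of 1676 others (63.6%, 61.3 to 65.9%), where all gave 63.2%. The difference was −3.50 points, with an interval that reached −10.9 points (adjusted p = 0.398 by Fisher's exact test). The central 400 bp lay within 1 kb of a gene start or end at 19 (9.84%, 6.39 to 14.9%) and at 216 others (12.9%, 11.4 to 14.6%), where all gave 12.6% (−3.04 points, adjusted p = 0.345 by the same exact test). The 116 lay in 107 genes, of which 46 have a name beyond a locus number, and 9 genes held 2 strong hotspots each. Among these was cadm2a, which in mammals encodes a cell adhesion molecule, on chromosome Y. Its hotspot at 44363066 to 44365085 (value 1413, rank 12) was shared with TAC-3 and had no H3K4me3, and the one at 44340471 to 44343160 (value 697) was unshared and had H3K4me3 in TAC-3 only. The 77 strong hotspots with their midpoint outside genes lay at a median of 15.2 kb from the nearest gene, against 12.8 kb for 624 others.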

How the data were processed

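Testes of 3 rainbow trout were profiled by DMC1-SSDS, and those of TAC-1 and TAC-3 also by H3K4me3 and H3K36me3 ChIP-seq, with 2 replicates each. For DMC1, the authors took single-stranded fragments on the build USDA_OmykA_1.1, called peaks with MACS2 2.2.7.1 against an input, kept peaks of the pooled replicates by irreproducible discovery rate, recentered them and normalized their strength by adjacent regions. The deposited value is a score in whole numbers that the list does not name, and it is below 0 at 3 RT-52 hotspots. For the histone lists, reads were aligned by the authors with BWA 0.7.17-r1188, merged MACS2 peaks within 1 kb and kept regions found in both replicates, and the deposited score is the mean MACS2 score, at least 50. The fish and target of a list were read from its own name. Each list pools both replicates, so that no value has a replicate error, and the depth per hotspot is not given in the sources used here. No column of values was left unused, and input libraries have no list here.

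RT-52 hotspots were ranked by value, with ties broken by sequence name and start, and the 200 highest were compared with the other 1724. All 200 entered each comparison, except those made only among hotspots with H3K4me3 in TAC-1, in TAC-3 or in a single testis. The 7 on unplaced scaffolds have no chromosome or gene position and were left out of the comparisons of position. Overlap was at least 1 bp with the central 400 bp. The length of a chromosome was the largest end position of any listed peak or gene on it, not a length given by the assembly. Shares were compared by two-sided Fisher's exact test with Benjamini-Hochberg adjustment over 15 comparisons, called at an adjusted p below 0.05, with 95% Wilson intervals for shares and Newcombe intervals for differences. Where a count of 0 is said to allow up to a percentage, that limit is 3 divided by the number of hotspots, not a Wilson limit. Genes came from the RefSeq table of the same build, and chromosome names were matched to its sequences by hand: TAC-3 H3K4me3 peaks held a gene boundary at 22.2% or more on the matched chromosome and at most 7.71% on any other. Overlap calls were checked against bedtools 2.31.1 (11544 of 11544 windows the same) and tested on simulated data. Python 3.11.15, pandas 2.3.3, numpy 2.4.6, SciPy 1.17.1 and matplotlib 3.10.9 were used.

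The members, comparisons and alternatives were chosen with earlier results of these data known. Alternatives were 181 in all: other windows and overlaps, equal or shorter histone lists, 100 or 400 hotspots, other end and boundary widths, and the exclusion of scaffolds, chromosome ends, interiors, chromosome Y or hotspots within 10 kb of a stronger one. For sharing, the alternative with the midpoint base pair set the RT-52 midpoint against the central 400 bp of the other list, a form chosen after seeing that single base pairs of both lists almost never coincided. Sites named were the first 10, those at the threshold, those shared with both fish, the widest and narrowest, the closest pair, the one nearest to a chromosome end, the highest shared with each fish, and the chromosomes with most and fewest. The hotspots in psmd8, cadm2a and LOC110509593 were chosen after their values were seen.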

Additional observations from a re-analysis of the deposited data

Results flagged for a closer look

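The balance of H3K4me3 between the testes stood out because a test of the difference between hotspot groups passed the threshold. Of the hotspots with H3K4me3 in a single testis, TAC-1 was that testis at 47 of 111 of the strongest 200 (42.3%) and at 431 of 757 of the others (56.9%), a difference of −14.6 percentage points (p = 0.00422, adjusted p = 0.0106 by two-sided Fisher's exact test). The H3K4me3 lists differ in length (153665 peaks for TAC-1, 50548 for TAC-3), and with lists of equal length the difference was −8.53 points and no longer passed the threshold (adjusted p = 0.206, Fisher's exact test). The call was lost in 6 of 13 alternatives, with adjusted p between 0.0620 and 1 there (Fisher's exact test): lists of equal length, the higher-scoring part of each list, full-length hotspots, 25% overlap, the strongest 100 and hotspots outside the outer 10% of chromosomes. Each fish is 1 individual with 1 pair of alleles, so that allele and individual cannot be told apart.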

How the results depend on the processing

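No paired analysis was possible because each list pools both replicates, and for the same reason no replicate could be left out. Of 181 alternatives, 153 kept the direction and the side of the threshold, and 4 of the 15 comparisons did so in all of theirs. Values are strongest minus other hotspots in percentage points, and the cause of each change was not tested. With full-length hotspots, H3K4me3 of TAC-1 gave 5.87, H3K36me3 of TAC-1 5.81, both marks of TAC-1 4.21, H3K36me3 given H3K4me3 in TAC-1 0.0495, gene boundaries 1.07 and the TAC-1 share of single-testis H3K4me3 −10.9. With the central 2 kb, the first 3 gave 2.97, 0.297 and 1.57. With 25% overlap, H3K4me3 of TAC-1 gave 0.870 and the TAC-1 share −12.2. With equal histone lists they gave 3.34 and −8.53, and with the higher-scoring part of each list 2.36 and −12.7. With the strongest 100, H3K4me3 in either testis gave 10.8, the TAC-1 share −14.1 and genes 2.18. With 400, H3K4me3 in either testis gave 5.35 and gene boundaries 1.05, and with boundaries of 5 kb 2.88. Outside the outer 10% of chromosomes, H3K4me3 gave 4.99 in TAC-1, 2.61 in TAC-3 and 9.46 in either, and the TAC-1 share 0.416. Within it, H3K36me3 of TAC-3 gave 10.2 and both marks of TAC-3 8.42, and without scaffolds H3K36me3 of TAC-3 gave 6.85; these 3 passed the threshold. Sharing with TAC-1, sharing with TAC-3, the outer 10% and H3K36me3 given H3K4me3 in TAC-3 were the 4 that kept both.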

Other observations

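Within the strongest 200, the value had a median of 574 at the 83 with H3K4me3 in neither testis, 569 at the 47 with it in TAC-1 only, 566.5 at the 64 with it in TAC-3 only and 646.5 at the 6 with it in both. Their median widths were 2576, 2716, 2691 and 2822 bp. Hotspots shared with TAC-3 had a median value of 776 (n = 22), those shared with TAC-1 had 611 (n = 52) and unshared ones had 537 (n = 126). These values were used to choose the hotspots and are given with no test.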
